A study of Homo sapiens with 4 samples.

Results

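The genes described here are 10 members of the NF-kB system of human cells: the chemokines CXCL1, CXCL2, CXCL3, CXCL8, CXCL16 and CCL20, the inhibitors NFKBIA and TNFAIP3, and the subunits NFKB2 and RELB. They were taken by name from the 58336 genes of the deposited count table, and each name matched 1 gene. They were selected on their measured counts in these same libraries, with the differences with estradiol and between the cell lines both known, so their values are a description in both comparisons and no test of them is read. Gene expression was measured by RNA sequencing in 2 established gastric cancer cell lines, AGS, from an adenocarcinoma, and HGC-27, from an undifferentiated carcinoma, both labelled wild type, each as a control (labelled nc) and after 1 day in 10 nM estradiol, the main oestrogen. There was 1 library for each line and treatment, 4 in all, so that control and estradiol had 2 libraries each and each line had 2. Nothing in the labels says whether the cultures were separate experiments, so a p-value speaks of the spread between these libraries alone, which may be technical. Total counts ran from 24597379 to 28734374 per library, and 3 counts, taken as the limit that a count of 0 allows, equalled 0.104 to 0.12 counts-per-million units (CPM).

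NF-kB is a family of paired transcription factors that are held in the cytoplasm by inhibitor proteins. Signals from receptors for tumour necrosis factor, interleukin-1 or bacterial products activate the IkB kinase complex, the inhibitor NFKBIA is destroyed, and the freed factors switch on inflammatory genes. Among these genes are their own inhibitors, NFKBIA and TNFAIP3, which end the signal, and chemokines that call in leukocytes. A slower branch processes the NFKB2 precursor, whose product acts together with RELB. In the stomach this system is best known from the response of the epithelium to Helicobacter pylori, in which CXCL8 is a leading product.

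NF-kB binds short DNA stretches called kB sites, so the letters before the members' start sites are shown. The members are a named group of NF-kB genes, and known kB sites may have had a part in that naming. RefSeq start-site windows (build GRCh38.p14, 250 bases before to 50 after the start) were found for 8 of the 10 members. CXCL16 and RELB were not matched. The windows were searched on both strands for the NF-kB consensus (the kB consensus) and for GGAATTTCC, a variant that can overlap it. The kB consensus was in a window of 7 of the 8 matched members, against 11.3% of all 35116 windows. GGAATTTCC was in 5 of the 8, against 0.461% of all windows. The shares count windows while members are counted as genes, and NFKB2 has several windows. CXCL1, CXCL2 and CXCL3 carry nearly the same letters and are not independent cases. For these reasons nothing is read from 7 or 5 of the 8 against these shares. A match is a description of letters and does not show that a factor binds there. Each line below gives 30 bases, 5′ to 3′ on the gene's strand, with the matched letters in capitals.
CXCL1: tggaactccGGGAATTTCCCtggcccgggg
CXCL2: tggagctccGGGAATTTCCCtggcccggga
CXCL3: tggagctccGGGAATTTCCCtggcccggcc
CXCL8: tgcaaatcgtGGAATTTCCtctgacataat
CCL20: tgatcaatggGGAAAACCCCatgtggcaac
NFKBIA: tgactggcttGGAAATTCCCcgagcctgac
TNFAIP3: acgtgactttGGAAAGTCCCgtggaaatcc
NFKB2: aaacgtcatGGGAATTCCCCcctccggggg

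The 3 GRO chemokines carried nearly the same stretch. CXCL1 (chr4:73869305-73869334, plus strand) and CXCL2 (chr4:74099253-74099282, minus strand) had 28 of 30 bases in common. CXCL2 and CXCL3 (chr4:74038748-74038777, minus strand) also shared 28, and CXCL1 and CXCL3 shared 27. Their match began 79, 78 and 79 bases before the start of CXCL1, CXCL2 and CXCL3. The CXCL8 stretch (chr4:73740468-73740497, plus strand) held GGAATTTCC, 91 bases before the start, and no match to the longer consensus. It shared 17 of 30 bases with that of CXCL1. The other stretches were those of CCL20 (chr2:227813753-227813782, plus strand, match 79 bases before the start), NFKBIA (chr14:35404811-35404840, minus strand, 81 bases), TNFAIP3 (chr6:137867182-137867211, plus strand, 67 bases) and NFKB2 (chr10:102394462-102394491, plus strand, 107 bases before one of its 3 listed starts). TNFAIP3 had another match 55 bases before the start, which its line shows in part in lower case. NFKB2 also had a match 78 bases before the same start, outside the bases shown. Before another of its starts it had matches at 176 and 21 bases. Starts here are those of RefSeq, and they equal the start in the count table for CXCL1 and NFKBIA only.

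The 140 bases up to the start are shown for these genes, a chemokine with counts in AGS alone and an inhibitor with counts in both lines, with the kB match and any TATAAA, read on both strands, in capitals.
CXCL1: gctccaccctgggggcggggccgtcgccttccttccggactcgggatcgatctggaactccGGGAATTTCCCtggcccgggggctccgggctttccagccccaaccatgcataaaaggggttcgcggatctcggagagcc
NFKBIA: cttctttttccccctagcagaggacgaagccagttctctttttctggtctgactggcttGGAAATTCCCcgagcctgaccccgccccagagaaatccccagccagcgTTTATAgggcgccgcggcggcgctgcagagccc

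The CXCL1 stretch is chr4:73869253-73869392 on the plus strand, and the NFKBIA stretch is chr14:35404750-35404889 on the minus strand. TATAAA was in the windows of CCL20, CXCL8 and NFKBIA, against 11.5% of all windows. TGANTCA, the letters of AP-1, was in the CXCL8 window alone among the 8 members (7.71% of all windows), 137 bases before its start. The full oestrogen response element (GGTCA, any 3 bases, then TGACC) was in 0 of the 8 windows and in 0.057% of all windows. That says only that these letters are not in these 300 bases.

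The levels of the members came in 3 patterns: 4 chemokines that were low in AGS and at or near 0 in HGC-27, a membrane chemokine that was abundant in AGS and scarce in HGC-27, and 4 regulators that were read in both lines. CCL20 had no counts in any library. AGS and HGC-27 were far apart across the whole transcriptome as well. Of 18278 tested genes, 77.2% passed an adjusted p of 0.05 between the lines (edgeR quasi-likelihood test, Benjamini-Hochberg), 35.7% with AGS higher and 41.5% with HGC-27 higher. All 8 tested members were among them (7 with DESeq2 and 8 with limma-voom), and nothing is read from that count. CXCL8 and CCL20 did not pass the filter on low counts.

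CXCL1 (ENSG00000163739, chromosome 4, 73869393 to 73871242, plus strand) is a ligand of CXCR2 that attracts neutrophils. It had 26 counts in AGS control, 35 in AGS estradiol and 0 in both HGC-27 libraries, that is 1.00 and 1.27 CPM in AGS. CXCL2 (ENSG00000081041, chromosome 4, 74097035 to 74099293, minus strand), its close relative, had 32 and 79 counts in the AGS libraries and 0 and 0 in those of HGC-27, or 1.23 and 2.86 CPM in AGS. The libraries of the lines did not overlap for either gene. With 0 counts set to 3 per library, CXCL1 was at least 9.65-fold higher in AGS and CXCL2 at least 11.9-fold.

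CXCL3 (ENSG00000163734, chromosome 4, 74036589 to 74038807, minus strand), the third GRO chemokine, had 59 counts in each AGS library. HGC-27 had 0 counts in control and 1 in estradiol. The ratio of the lines was 119, with a 95% counting interval of 20.9 to 4726. The single HGC-27 read sets it: the fitted log2 difference of 6.57 was 8.92 without the HGC-27 estradiol library and 5.62 without the HGC-27 control library. CXCL8, or interleukin-8 (ENSG00000169429, chromosome 4, 73740506 to 73743716, plus strand), had 7 counts in AGS control, 20 in AGS estradiol and 0 in both HGC-27 libraries, which puts AGS at least 2.60-fold higher. All 4 were thus detected in AGS, and the HGC-27 libraries together held 1 read of the 4 genes.

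These 4 genes lie in 1 chemokine cluster, within 358.8 kb of chromosome 4 (73740506 to 74099293). The 5 other listed CXC chemokine genes between them, CXCL6, PF4V1, PF4, PPBP and CXCL5, had 0 counts in all 4 libraries. Reads of CXCL1, CXCL2 and CXCL3 can fall on more than 1 gene. Of the 31-base stretches of the longest transcript, 16.1% in CXCL1, 20.4% in CXCL2 and 7.01% in CXCL3 also occurred in a transcript of another gene, mostly of the same family, against 0 in CXCL8. Their counts are uncertain for this reason, by an amount that these shares of stretches do not measure.

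CXCL16 (ENSG00000161921, chromosome 17, 4733526 to 4739922, minus strand) differs from the other members in kind, being a chemokine anchored in the membrane that also takes up lipoproteins. It had 4720 and 5127 counts in AGS control and estradiol and 59 and 62 in HGC-27, or 182, 185, 2.04 and 2.48 CPM. The lines did not overlap, and the ratio of AGS to HGC-27 was 81.8 (counting interval 68.4 to 98.7). CXCL16 made up 97.4% and 96.4% of the summed CPM of the 6 chemokines in the AGS libraries. In HGC-27, 2.04 of 2.04 CPM in control and 98.4% in estradiol were CXCL16. An 85-base overlap with MED11 on the opposite strand (150 to 205 counts in the controls) touches its gene, and the strand setting of the counting is not known here.

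CCL20 (ENSG00000115009, chromosome 2, 227805739 to 227817564, plus strand), which attracts cells with the receptor CCR6 and is a textbook target of NF-kB in mucosal epithelium, had 0 counts in all 4 libraries. A level of up to 0.12 CPM would be compatible with 0 counts in the shallowest library. No fold can be given for it.

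**Figure D1:**
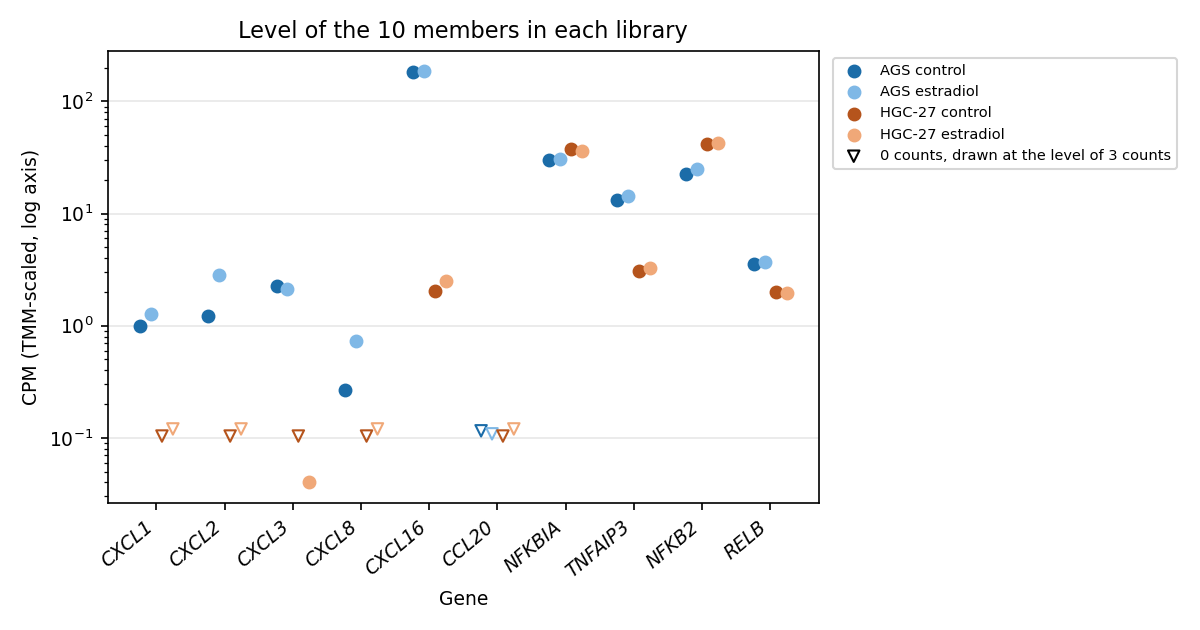
Level of each of the 10 genes in each library, in CPM scaled by TMM factors on a log axis, with open triangles for 0 counts drawn at the level of 3 counts. The GRO chemokines and CXCL8 sit between 0.269 and 2.86 CPM in AGS and at 0 in HGC-27, apart from the single read of CXCL3, while CXCL16 is at 182 and 185 CPM in AGS.

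NFKBIA, or IkB-alpha (ENSG00000100906, chromosome 14, 35401511 to 35404749, minus strand), the inhibitor that keeps NF-kB in the cytoplasm, was the most even of the members. It had 775 and 851 counts in the AGS libraries and 1087 and 896 in those of HGC-27, or 29.8, 30.8, 37.6 and 35.8 CPM. Both HGC-27 libraries were above both AGS libraries, by 1.21-fold (counting interval 1.14 to 1.30). NFKB2 (ENSG00000077150, chromosome 10, 102394110 to 102402529, plus strand), the p100 precursor of the slower branch, had 585 and 693 counts in the AGS libraries and 1217 and 1053 in those of HGC-27, or 22.5, 25.1, 42.1 and 42.1 CPM. HGC-27 was 1.77-fold higher (1.65 to 1.89).

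The other inhibitor and the partner of NFKB2 were higher in AGS. TNFAIP3, or A20 (ENSG00000118503, chromosome 6, 137867188 to 137883312, plus strand), a ubiquitin-editing enzyme that shuts off the signal, had 345 and 393 counts in the AGS libraries and 88 and 81 in those of HGC-27, or 13.3, 14.2, 3.04 and 3.24 CPM. AGS was 4.39-fold higher (3.71 to 5.22). An antisense gene, AL357060.1, overlaps it over 1046 bases and had 15 to 36 counts. RELB (ENSG00000104856, chromosome 19, 45001430 to 45038198, plus strand) had 93 and 103 counts in the AGS libraries and 58 and 49 in those of HGC-27, or 3.58, 3.73, 2.005 and 1.96 CPM, a ratio of 1.84 (1.45 to 2.35). NFKB2 and RELB, which act together, thus stood in opposite order in the lines.

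Levels were compared between genes per length, as RPKM, which is the CPM divided by the exon length in kilobases that the table gives. In AGS control the order was CXCL16 at 65.0, NFKBIA at 12.6, NFKB2 at 5.02 and TNFAIP3 at 2.63, followed by RELB at 1.18, CXCL3 at 1.02, CXCL2 at 0.821, CXCL1 at 0.772 and CXCL8 at 0.118. In AGS estradiol CXCL2, at 1.91, stood above RELB at 1.23, CXCL1 at 0.977 and CXCL3 at 0.962. RELB and the 3 GRO chemokines therefore changed places between the AGS libraries, and their order is not settled. In HGC-27 NFKBIA led with 15.8 in control and 15.1 in estradiol, followed by NFKB2 with 9.38 and 9.40. CXCL16 at 0.73 and 0.888, RELB at 0.661 and 0.646 and TNFAIP3 at 0.602 and 0.642 lay close together, and the order of RELB and TNFAIP3 is not settled by their counts. Among 19883 protein-coding genes, CXCL16 lay at the 97.5th percentile in AGS control and the 44.9th in HGC-27 control, and NFKBIA at the 81.3rd and 86.3rd.

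The lines differed in their markers at the same time. The summed level of 12 gastric epithelium markers was 5941 and 6282 CPM in AGS and 82.5 and 89.5 CPM in HGC-27, where EPCAM had 10 and 8 counts and GKN1, TFF1, TFF2 and MUC5AC had 0. GKN1 was also at 0 in AGS. The 7 fibroblast markers summed to 30.4 and 32.5 CPM in AGS, with DCN, LUM and COL1A2 at 0, and to 1755 and 1832 CPM in HGC-27. The 11 leukocyte markers summed to 246 and 183 CPM in AGS, of which LYZ, also a gene of stomach epithelium, held nearly all, and to 5.67 and 5.92 CPM in HGC-27. CD3E and FCGR3A were at 0 in all libraries. The 5 endothelial markers stayed between 0.269 and 0.657 CPM. The part of these differences in the values of the members was not tested. In bulk RNA, fewer cells that make a transcript and less of it per cell cannot be told apart.

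The rest of the pathway was followed in 9 lists of 167 other genes, 107 of which passed the filter on low counts. Between the lines, 68 were higher in AGS, 29 were higher in HGC-27 and 10 did not pass the threshold (edgeR). The shares over all tested genes were 35.7% and 41.5%. The median log2 difference, AGS minus HGC-27, was 0.61 over these genes and -0.10 over all genes, also with genes at 0 in a line set to their bound. The lists were written with earlier results of these data known, so nothing is read from these counts and medians against those over all genes.

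Of 15 tested receptors that start the signal, 11 were higher in AGS and 4 in HGC-27. TNFRSF1B, a receptor of tumour necrosis factor, had 1370 and 1530 counts in AGS against 0 in HGC-27, at least 461-fold higher in AGS. TLR4, the receptor of bacterial lipopolysaccharide, had 954 and 1121 counts in AGS against 0 in HGC-27 (at least 338-fold). CD40, a receptor that also drives the slower branch, had 139 and 89 counts against 0 (at least 26.8-fold). Each of these 3 receptors was thus at 0 in both HGC-27 libraries.

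Among adaptors and kinases, 17 of 28 were higher in AGS, 8 in HGC-27 and 3 did not pass. IRAK1, the kinase next to the interleukin-1 and Toll-like receptors, had 4595 and 5125 counts in the AGS libraries and 46 and 19 in those of HGC-27, a ratio of 150 (118 to 195). Its log2 difference was 7.23 ± 0.11 (SE, edgeR adjusted p = 7.68e-216). BIRC3, a ubiquitin ligase and NF-kB target, differed by 3.85 ± 0.22 (adjusted p = 3.99e-49, edgeR). MYD88, the adaptor of the same receptors, differed by 2.56 ± 0.08, with 2491 and 2707 counts in the AGS libraries and 450 and 435 in those of HGC-27.

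Of the 8 other subunits and IkB proteins, 6 were higher in AGS, 1 was higher in HGC-27 and 1 did not pass. BCL3, a nuclear IkB protein, had 1090 and 1213 counts in the AGS libraries and 196 and 187 in those of HGC-27 (log2 difference 2.59 ± 0.11). NFKBIZ differed by 1.17 ± 0.18 and NFKBIE by 0.80 ± 0.19. The feedback inhibitors were higher in AGS for 8 of 12 and in HGC-27 for 3, and 1 did not pass. ZFP36, which destabilises cytokine messages, differed by 4.22 ± 0.09 and ZC3H12A, an RNase with a like role, by 1.32 ± 0.15. CYLD, a deubiquitinase that restrains the pathway, went the other way, with 445 and 598 counts in the AGS libraries and 1911 and 1693 in those of HGC-27 (-1.79 ± 0.08).

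The other chemokines divided between the lines. Outside the cluster span on the same chromosome, CXCL9, CXCL10 and CXCL11, the interferon-induced ligands of CXCR3, were all higher in AGS. CXCL11 had 120 and 128 counts and CXCL10 had 73 and 64, both with 0 in HGC-27, at least 38.6-fold and 19.3-fold higher in AGS. Of the 27 remaining chemokines, 22 did not pass the filter. Among the 5 that did, 2 were higher in AGS and 3 in HGC-27. CCL2, which attracts monocytes, was at 0 in AGS and had 517 and 470 counts in HGC-27, at least 155-fold higher there. XCL1 had 0 in AGS and 100 and 78 in HGC-27 (at least 28.8-fold), while CCL5 had 80 and 112 in AGS and 6 and 2 in HGC-27 (ratio 24.1, interval 12.003 to 56.7). Each line thus had chemokines with 0 counts in the other.

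Of 10 tested inflammatory cytokines, 5 were higher in AGS, 3 in HGC-27 and 2 did not pass. Of 19 tested other targets of NF-kB, 13 were higher in AGS, 5 in HGC-27 and 1 did not pass. IL18 had 2063 and 2479 counts in the AGS libraries and 1 and 0 in those of HGC-27. TNFSF15, a ligand of the tumour necrosis factor family, had 574 and 643 against 0 and 1, and the alarmin IL33 had 70 and 49 against 0. ICAM1, the leukocyte adhesion molecule, had 2084 and 2465 counts in the AGS libraries and 3 and 3 in those of HGC-27. VCAM1, another adhesion molecule, had 0 in AGS and 813 and 718 in HGC-27, at least 243-fold higher in HGC-27. TNFAIP2 had 2471 and 2794 counts in the AGS libraries and 42 and 54 in those of HGC-27 (log2 difference 5.78 ± 0.11).

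**Figure D2:**
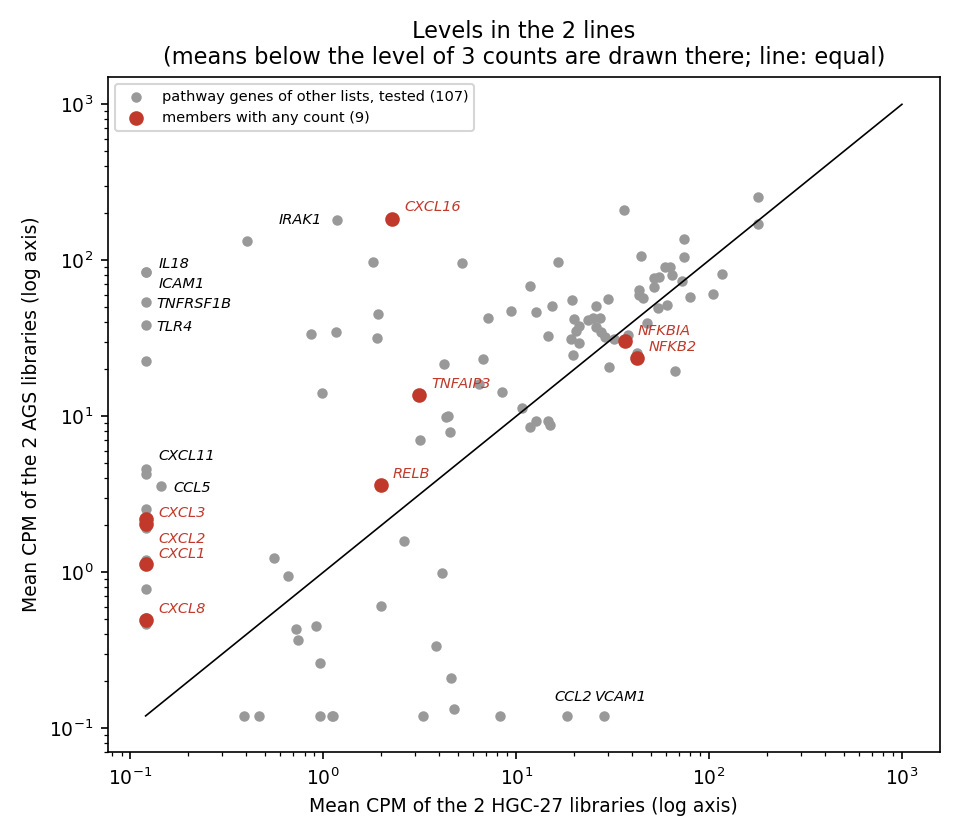
Mean CPM of the 2 AGS libraries against that of the 2 HGC-27 libraries, both on log axes, for the 9 members with any count (red) and 107 other tested genes of the pathway (grey), with the diagonal for equal levels. Means below 3 counts are drawn at that level, where CXCL1, CXCL2, CXCL3 and CXCL8 stand at the left edge with TLR4 and TNFRSF1B, and CCL2 and VCAM1 at the lower edge.

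Receptors for the members' chemokines had few or no counts. CXCR1 had 0 counts in all libraries and CXCR2, the receptor of the GRO chemokines, had 2, 1, 1 and 0 counts in AGS control, AGS estradiol, HGC-27 control and HGC-27 estradiol. CCR6, the receptor of CCL20, had 0. CXCR6, the receptor of CXCL16, had 31 and 35 counts in the AGS libraries and 10 and 19 in those of HGC-27. These 4 receptors were named for their ligands, after their values were seen. ADAM10, the protease that sheds CXCL16 from the membrane, was high in both lines, with 6565 and 7181 counts in the AGS libraries and 5272 and 4411 in those of HGC-27 (log2 difference 0.51 ± 0.05). ADAM17 did not pass between the lines (-0.14 ± 0.07, adjusted p = 0.0751, edgeR). CCR10, a receptor of skin and mucosal chemokines, had 10 and 1 counts in the AGS libraries and 131 and 116 in those of HGC-27 (-4.46 ± 0.43). Of 7 tested genes in this list, 3 were higher in AGS, 2 in HGC-27 and 2 did not pass.

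With estradiol, 2 of the members moved beyond counting error, both in AGS. CXCL2 went from 1.23 to 2.86 CPM, a ratio of 2.32 (95% counting interval 1.52 to 3.62), and CXCL8 from 0.269 to 0.724 CPM, a ratio of 2.69 (1.09 to 7.52). There is no replicate within a line, so these are values of 1 library over 1 library, and the intervals cover counting error only. Of 15605 genes that averaged 10 or more counts in AGS, 12.6% had an interval above 0 on the log2 scale, 13.6% had one below 0 and 5.23% were over 1.5-fold higher. At mean counts of 10 to under 100, where CXCL2, CXCL8, CXCL1, CXCL3 and RELB lie, 8.75% of 4688 genes did so, and 16.6% were over 1.5-fold higher. The members were chosen with these ratios known, so nothing is read from 2 of 5 against that share.

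The other chemokines of AGS stayed within their intervals. CXCL1 had a ratio of 1.27 (0.74 to 2.19), CXCL3 of 0.94 (0.644 to 1.37) and CXCL16 of 1.02 (0.982 to 1.06). CXCL1 and CXCL3 have nearly the same kB stretch as CXCL2, shown above, and their intervals overlap that of CXCL2 for CXCL1 but not for CXCL3. The difference between the ratios of these genes was not tested. In HGC-27 no ratio can be given for CXCL1, CXCL2, CXCL3 and CXCL8, and CXCL16 had 1.22 (0.838 to 1.77).

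For the regulators, estradiol and control libraries lay close together. In AGS the ratio of estradiol to control was 1.03 for NFKBIA (0.936 to 1.14), 1.07 for TNFAIP3 (0.924 to 1.24), 1.11 for NFKB2 (0.996 to 1.246) and 1.04 for RELB (0.779 to 1.39). In HGC-27 it was 0.954 for NFKBIA (0.872 to 1.04), 1.07 for TNFAIP3 (0.778 to 1.46), 1.00 for NFKB2 (0.921 to 1.09) and 0.978 for RELB (0.655 to 1.46). All 8 intervals include 1. They were widest for RELB and TNFAIP3 in HGC-27, and for NFKBIA and NFKB2 over both lines they ran no lower than 0.872 and no higher than 1.246. Of the 5 members that averaged 10 or more counts in HGC-27, 0 had an interval off 0, against 10.1% of 17234 genes above and 11.2% below, and 0 were over 1.5-fold higher, against 5.62%.

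**Figure D3:**
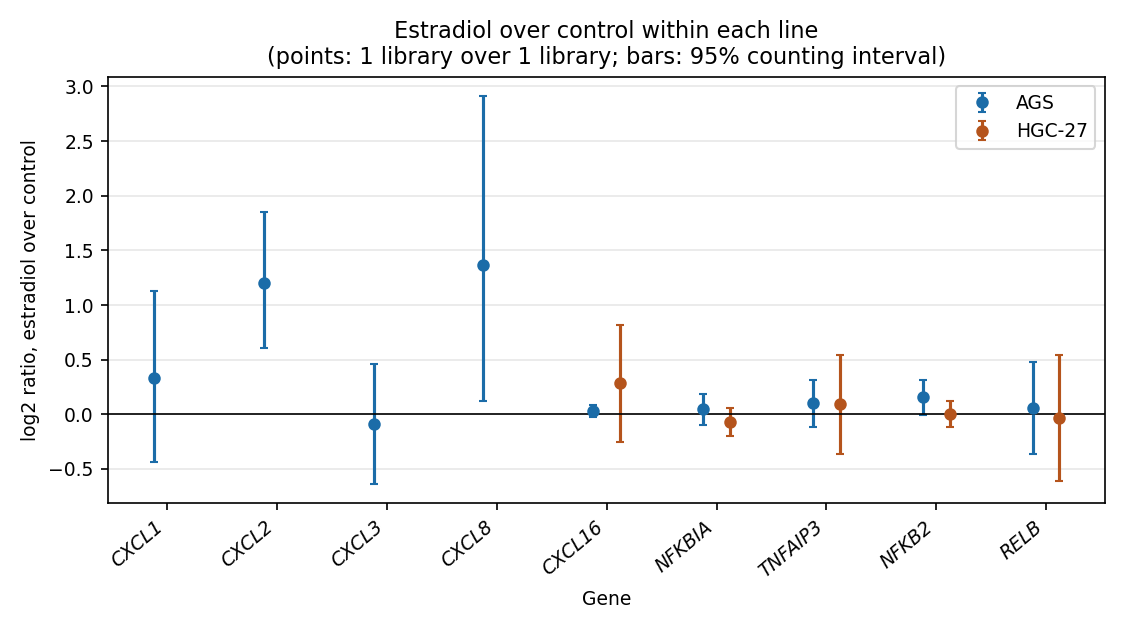
Log2 ratio of estradiol over control within AGS (blue) and HGC-27 (orange) for the 9 members with counts, with 95% counting intervals as bars. The intervals of CXCL2 (0.61 to 1.86) and CXCL8 (0.13 to 2.91) in AGS lie above 0, and all others shown include 0.

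**Figure D4:**
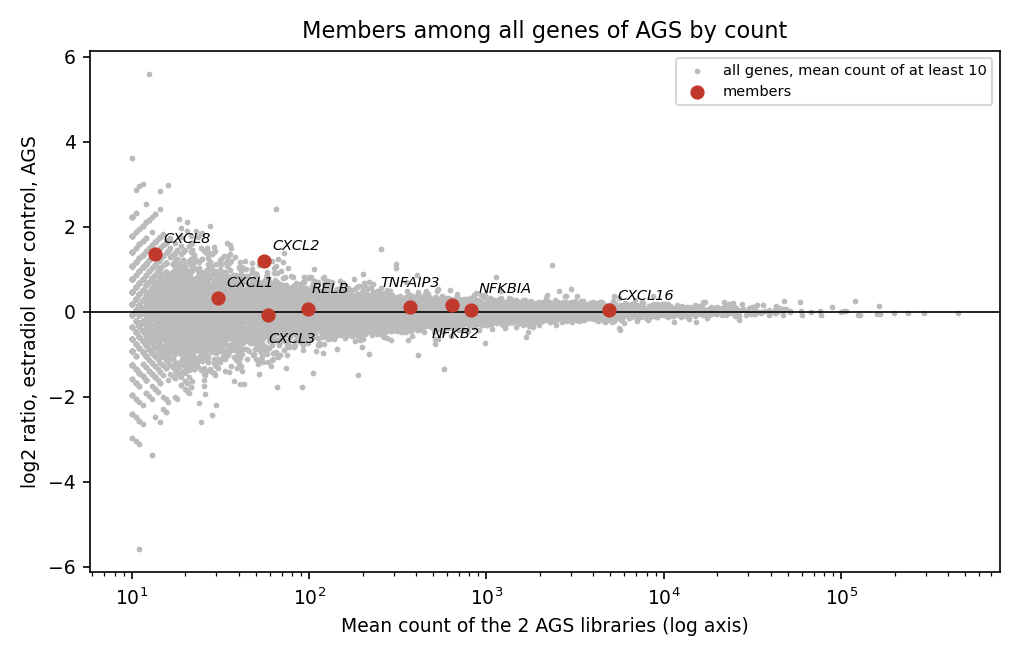
Log2 ratio of estradiol over control in AGS against the mean count of its 2 libraries (log axis), for all genes averaging 10 or more counts (grey) and the 9 members among them (red). The grey cloud widens at low counts, where CXCL8 (mean count 13.5) lies inside it and CXCL2 (55.5) lies at its upper edge.

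Over both lines together, the model with line as a block gave fitted log2 changes of 1.20 ± 0.61 (SE) for CXCL2, 0.33 ± 0.74 for CXCL1, 0.00 ± 0.53 for CXCL3, 0.10 ± 0.17 for TNFAIP3, 0.07 ± 0.09 for NFKB2, 0.05 ± 0.08 for CXCL16, 0.02 ± 0.29 for RELB and -0.01 ± 0.09 for NFKBIA. The values of CXCL1 and CXCL2 rest on AGS alone, since HGC-27 had 0 counts of both. That of CXCL3 includes a single HGC-27 read, and it was -0.09 in AGS alone. With DESeq2 it was 0.37 and with limma-voom 0.49. The value of CXCL16 was 0.28 in HGC-27 alone. Of the 8 tested members, 0 passed in edgeR, DESeq2 and limma-voom, against 0.153% of all tested genes that passed in edgeR. An unadjusted p under 0.05 was reached by 0 of the 8 in each tool, against 593 of 18278 genes in edgeR. The members were chosen with these values known, so nothing is read from these counts.

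Of the 107 tested genes of the other lists, 1 passed with estradiol in edgeR, and 6 had an unadjusted p under 0.05, against 28 and 593 of the 18278 genes tested. DESeq2 called 0 (0 unadjusted) and limma-voom 0 (3 unadjusted). The 1 call was IER3, an early-response gene that NF-kB induces (log2 change 0.44 ± 0.10, adjusted p = 0.00629, edgeR), with 43.2 and 50.4 CPM in AGS control and estradiol and 9.26 and 16.1 CPM in HGC-27. It was higher with estradiol in both lines, by ratios of 1.17 (1.08 to 1.26) and 1.74 (1.49 to 2.04). Of the fitted changes, 65 of 107 were above 0 with a median log2 of 0.03, against 9087 of 18278 and -0.00072 over all genes. Called genes were 1 of 19 in the list of other targets and 0 in each of the other 8 lists. The lists were written with earlier results of these data known, so nothing is read from these counts against those over all genes.

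Apart from IER3, the genes with the smallest p in their lists, among those with a mean CPM of at least 1, did not pass. They are given as values. Some genes below that level had a smaller p than those named from their lists. CXCR4, at a mean CPM of 0.555, had an unadjusted p of 0.00657 (edgeR), and IL11, at 0.798, had 0.248 (edgeR). Among receptors, TLR3 stood at -0.42 ± 0.18 and IL17RA at 0.19 ± 0.08, with adjusted p = 0.9999 for both in edgeR. Among adaptors these were BIRC3 at 0.44 ± 0.20, which had 320 and 438 counts in the AGS libraries and 21 and 31 in those of HGC-27, and SHARPIN at 0.15 ± 0.10. Among IkB proteins NFKBIB stood at -0.18 ± 0.09 and NFKBID at -0.21 ± 0.14. Among chemokines CXCL10 stood at -0.28 ± 0.53, CXCL11 at 0.00 ± 0.40, CCL5 at 0.19 ± 0.42 and CCL2 at 0.07 ± 0.20, and among receptors and sheddases CCR10 at -0.29 ± 0.37 and ADAM17 at 0.04 ± 0.07. The feedback inhibitors CYLD and TOLLIP were at 0.16 ± 0.08 and 0.16 ± 0.09. The cytokines IL18 and TNFSF9 were at 0.17 ± 0.10 and 0.31 ± 0.30. SOD2, the mitochondrial superoxide dismutase, was at -0.21 ± 0.07 (adjusted p = 0.707, edgeR); its name is carried by 2 rows of the table, and the row with more counts was used.

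The 5 protein-coding genes whose pattern over the 4 libraries was most like that of the GRO chemokines and CXCL8 were PCED1B, TGFA, ZFP36, PPP1R13L and SVIP, out of 12609 with a mean CPM of at least 1. Likeness was the root mean square distance between centred log2 CPM, which was 0.0999 for PCED1B and 0.142 for SVIP. PCED1B had 139 and 171 counts in the AGS libraries and 7 and 8 in those of HGC-27, and TGFA, a ligand of the EGF receptor, had 662 and 757 against 39 and 43. The HGC-27 values of the 4 chemokines in this measure rest on counts of 0 or 1 raised by a prior of 2 counts.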

How the data were processed

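The authors deposited whole-number raw counts for each gene, made with HISAT2 and featureCounts, per the submitters' processing notes; versions, strand setting and the handling of reads with several matches are not given in the sources used here. RNA was extracted with TRIzol and libraries followed an NEB method, per the labels' protocols. The notes name hg18, but start and end of 57475 of 58216 gene IDs found in GENCODE 29 (GRCh38), and of all 10 members, equal those of that annotation, so coordinates are GRCh38. Promoter letters are from RefSeq (GRCh38.p14).

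Counts were fitted in R 4.3.3 with edgeR 4.0.16 (TMM, filterByExpr, quasi-likelihood F-test, line plus treatment, Benjamini-Hochberg over 18278 genes). The model has 1 residual degree of freedom, so SEs rest on a spread pooled over genes (prior degrees of freedom 396.9). DESeq2 1.42.0 and limma 3.58.1 (voom) were alternatives. Library numbers mark the cell line and so pair the libraries: r was 0.998 within AGS and within HGC-27 and 0.777 to 0.781 between the lines (log2 CPM plus 1, over tested genes). Ratios within a line carry exact conditional binomial intervals (95%), and log2 ratios a prior of 0.5 counts. Intervals and limits of 0 counts cover counting error only, since reads carry no molecular identifiers and are not independent. Fits were tested on simulated data with independent libraries and a common spread for all genes, which does not check the SEs given here.

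The members, the lists and the rule for named genes were chosen with earlier results of these data known. From each list the rule took the 3 largest line differences past the threshold and the 2 smallest p for estradiol, at a mean CPM of at least 1, and every gene past the threshold for estradiol.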

Additional observations from a re-analysis of the deposited data

Results flagged for a closer look

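Of 177 genes looked at (members and the other lists), 5 moved in opposite directions with estradiol in the lines. Each had a counting interval off 0 in both lines, and none was a member. CXCL1, CXCL2, CXCL3, CXCL8 and CCL20 had no ratio in HGC-27 and could not be among them. The share of such genes over all genes was not counted, so nothing is read from the 5. Among genes averaging 10 or more counts, 12.6% in AGS had an interval above 0 and 13.6% below. In HGC-27 these shares were 10.1% and 11.2%. The log2 values of estradiol over control, AGS first and HGC-27 second, were 0.15 and -0.18 for BCL2L1, -1.001 and 0.62 for CARD9, 0.0686 and -1.04 for IRAK1, 0.24 and -0.24 for NLRC5, and 0.15 and -0.14 for TNFRSF12A. CARD9 and IRAK1 rest on low counts in places: CARD9 had 55 and 29 counts in the AGS libraries and 60 and 80 in those of HGC-27, and IRAK1 had 46 and 19 in HGC-27. With 1 library for each line and treatment, the difference between the lines was not tested.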

How the results depend on the processing

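The count of genes called with estradiol depended on the test. Over all genes it was 28 in edgeR with the line as a block (593 with an unadjusted p under 0.05), and without that replicate block it was 0 (2 unadjusted). DESeq2 called 1 (145 unadjusted) and limma-voom 0 (490 unadjusted). Over the 107 genes of the other lists, 1 call (IER3) became 0 without the block, with DESeq2 and with limma-voom. Both counts stayed within 1.5 times under RLE size factors, no filter and protein-coding genes only. The number of tested members with a fitted estradiol change above 0 was 7 of 8, and from 3 (HGC-27 alone, where 5 members can be given a ratio) to 7 (AGS alone) without a line. Leaving out a line leaves 1 library per group, so no count of calls was possible there. Between the lines, the 97 called genes of the other lists stayed between 91 and 99 under all alternatives run, single libraries left out included. Of 169 values of single members under alternatives, 161 stayed within 1 SE of the reported value or, for ratios in a line, its counting interval, 8 moved and 0 changed direction after being called. Counts under about 100 limit CXCL1, CXCL2, CXCL3, CXCL8 and RELB, whose intervals are wide.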

Other observations

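CXCR4, the receptor of CXCL12, was noticed after its values were seen. It had 0 counts in both AGS libraries and 11 in control and 46 in estradiol of HGC-27, or 0.38 and 1.84 CPM, a ratio of 4.84 (95% counting interval 2.47 to 10.4). Over both lines its log2 change was 2.23 ± 0.82 (SE), which did not pass in edgeR (adjusted p = 0.896). CXCL12, its ligand, had 0 counts in all 4 libraries. CD40, not named by the rule for estradiol, stood at 5.35 CPM in AGS control and 3.22 in AGS estradiol, with 0 counts in HGC-27. Its ratio in AGS was 0.602 (0.456 to 0.791), and it did not pass either (edgeR adjusted p = 0.9999). Of AGS genes averaging 10 or more counts, 13.6% had an interval below 0 on the log2 scale.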
